A study of Mus musculus with 9 samples.

Results

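The genes described here are 9 interleukin and cytokine genes of cultured heart cells: the gp130 ligands *Il6*, *Lif*, *Il11* and *Clcf1*, the receptor genes *Il6st* and *Osmr*, the IL-1 family ligands *Il1b* and *Il33*, and *Csf1*. They were chosen by symbol, with earlier results of these data known. The shares of all genes given below are therefore background and not a test. All 9 are listed in each of the authors' 3 tables, which hold 14819 genes for LacZ and Nrf1, 14986 for LacZ and Nrf2, and 14908 for Nrf1 and Nrf2. The cells were neonatal rat ventricular cardiomyocytes (NRVMs), a primary culture from the hearts of newborn Sprague-Dawley rats. All groups were infected with an adenovirus at a multiplicity of infection of 50 and collected 48 h later, so the control cells carried virus too. The virus drove lacZ (a bacterial enzyme, the control), mouse Nrf1 or mouse Nrf2 from the CMV promoter, which is active in many cell types, and the vector also carried a red fluorescent protein. Each of the 3 groups, named LacZ, Nrf1 and Nrf2, had 3 libraries.

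Interleukin-6, leukaemia inhibitory factor, interleukin-11 and cardiotrophin-like cytokine factor are secreted proteins that signal through a shared receptor chain, gp130, which is encoded by *Il6st*. Each ligand brings gp130 together with a partner receptor, and the complex activates JAK kinases and the transcription factor STAT3. In heart muscle this pathway is known for growth and survival responses, and in inflamed tissue for the acute-phase response. Interleukin-1β and interleukin-33 belong to the IL-1 family, which alerts immune and stromal cells, and *Csf1* encodes the growth factor that macrophages need. Nrf1 and Nrf2 are related transcription factors best known for stress and antioxidant gene programs.

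The authors' tables give a mean normalised read count per group. In each group the value of 1 read in each library was visible in the lowest means, and the means of a group in its 2 tables together fixed the whole reads of a gene in the 3 libraries (99.8% of genes for LacZ, 99.95% for Nrf1 and 100% for Nrf2). The libraries recovered in this way are called A, B and C from the deepest to the shallowest of a group, since the means do not tell which of the numbered samples each one was. They held between 7267313 and 11152355 reads in 15061 genes. *Nfe2l2*, which encodes Nrf2, had 2947 to 3455 reads in the LacZ libraries and 69328 to 95074 in the Nrf2 libraries, with transgene and endogenous reads not told apart. The gene of Nrf1 was not analysed here, so the expression of that transgene was not checked. LacZ library B stood apart: the chi-square per degree of freedom was 3.76 between LacZ A and B and 2.64 between B and C, against 1.76 between A and C. The other groups ranged from 1.42 to 2.84, so no pair agreed within sampling noise. LacZ library B had the highest level of the 3 LacZ libraries for 7 of the 9 genes, and for 35.6% of all genes tested against Nrf1. Where leaving this library out ended a call or moved a called value by over 1.5 times, the value without it is given beside the result.

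Levels per library below are reads divided by size factors computed over all 9 libraries. The log2 differences come from limma on log2(normalised read count + 1), fitted on all genes over 1 CPM in at least 3 of the libraries compared. A gene was called at an adjusted p under 0.05 and a fold above 1.5. *Il11* and *Il1b* did not pass the filter, so 7 of the 9 genes were tested. The labels do not say whether the libraries of a group came from separate cultures, and the p-values then measure only the spread between these libraries.

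Nrf1 and Nrf2 samples both had lower levels of *Il6*, *Osmr*, *Il33* and *Csf1* than LacZ samples. In the authors' means, 6 of the 9 genes were more than 1.5-fold lower in Nrf1 samples (*Il6*, *Clcf1*, *Osmr*, *Il1b*, *Il33* and *Csf1*), where 22.5% of all genes with a mean of at least 1 were, and *Il11* was higher (13.3% of all genes). In Nrf2 samples 6 were more than 1.5-fold lower (*Il6*, *Lif*, *Osmr*, *Il1b*, *Il33* and *Csf1*), beside 14.2% of all genes, and *Il11* was again higher (13.1% of all genes). The median log2 ratio of the authors' means over the 9 genes was -0.91 for Nrf1 and -0.81 for Nrf2, against -0.03 and -0.01 over all genes. By limma, 5 of the 7 tested genes were called lower and 0 higher in each comparison with LacZ. The corresponding shares of all tested genes were 16.7% lower and 11.2% higher for Nrf1, and 9.37% lower and 9.02% higher for Nrf2. These comparisons share the LacZ libraries and are not independent. Because whole cultures were sequenced, fewer cells of a type and less RNA per cell cannot be told apart.

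**Figure D1:**
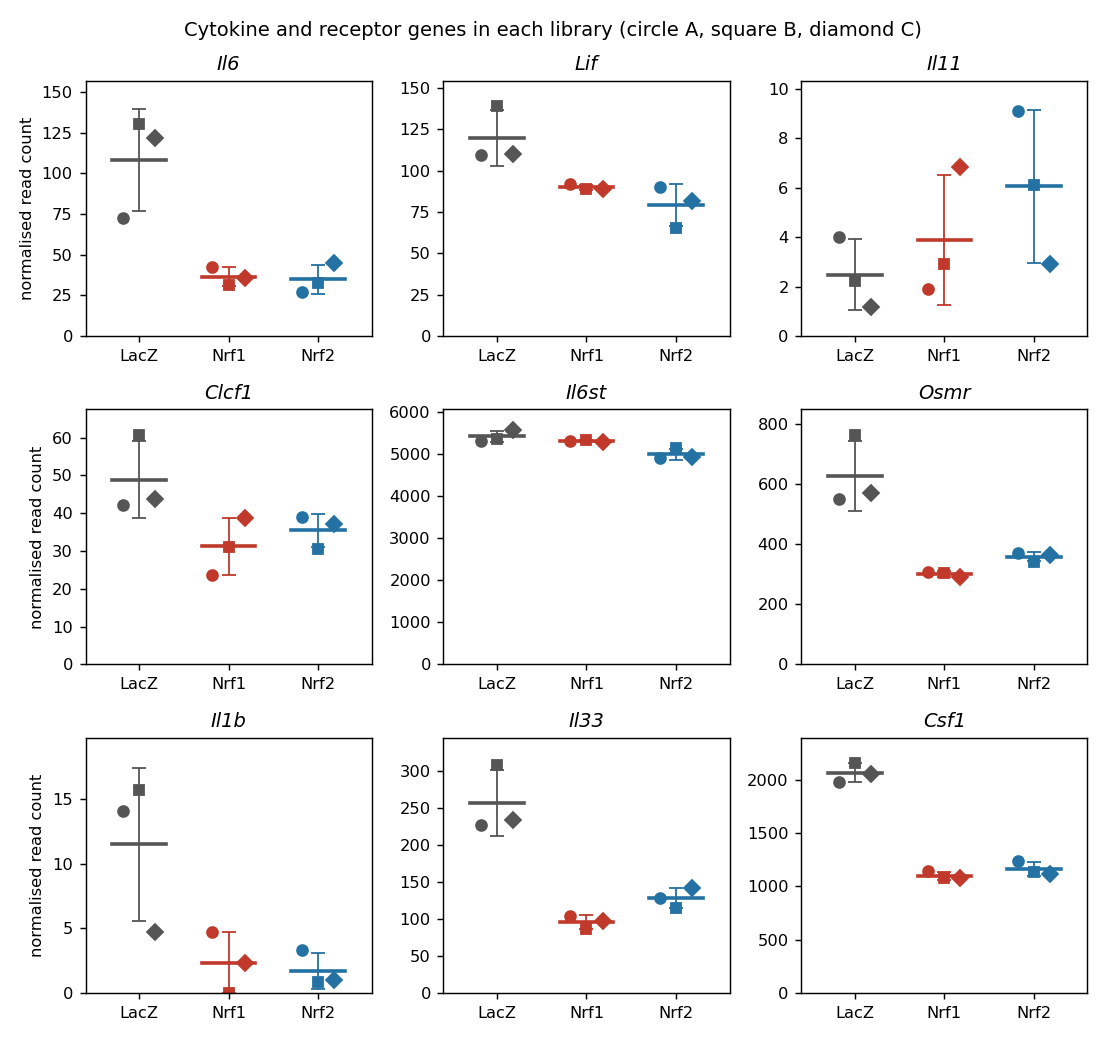
Normalised read count (y axis, from 0, a scale for each gene) of the 9 genes in each library of LacZ, Nrf1 and Nrf2; symbols are libraries A, B and C, the horizontal bar is the group mean and the error bar the SD over 3 libraries. For *Il6*, *Osmr*, *Il33* and *Csf1* every LacZ library lies above every Nrf1 and Nrf2 library, while *Il6st* stays between 4902 and 5581 in all 9 libraries.

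Among the gp130 ligands, *Il6* showed the largest difference of the tested ones. Its normalised read count was 72.4, 130.2 and 122.1 in LacZ libraries A, B and C, 42.6, 31.2 and 35.4 in the Nrf1 libraries, and 27.3, 32.4 and 44.8 in the Nrf2 libraries. The LacZ libraries did not overlap with those of either factor, although LacZ library A lay well below the other two. The authors' mean fell from 101.9 in LacZ to 34.2 in Nrf1 samples, and from 108.9 to 35.1 in Nrf2 samples in their second table, which is 2.98-fold and 3.10-fold lower. The log2 difference was -1.51 ± 0.21 (SE, adjusted p = 6.25e-06) with Nrf1 and -1.59 ± 0.22 (SE, adjusted p = 2.69e-05) with Nrf2. Without LacZ library B these differences were -1.36 and -1.43, and both were still called.

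*Lif*, whose product signals through gp130 and the LIF receptor, had 109.6, 139.2 and 110.2 normalised reads in LacZ libraries A, B and C, 91.8, 88.7 and 89.2 in the Nrf1 libraries, and 90.3, 65.6 and 81.9 in the Nrf2 libraries. No Nrf1 or Nrf2 library reached the lowest LacZ library. The difference was smaller than that of *Il6*. It was -0.40 ± 0.13 (SE, adjusted p = 0.0103; -0.29 and adjusted p = 0.0598 without LacZ library B) in Nrf1 samples, under the fold cutoff, and -0.59 ± 0.15 (SE, adjusted p = 0.00303) with Nrf2, just past it. The Nrf2 call rested on single libraries, since the difference was -0.48 without LacZ library B and -0.46 without Nrf2 library B, both under the cutoff.

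*Clcf1* encodes a ligand that signals through the CNTF receptor. It had 42.2, 60.6 and 43.9 normalised reads in LacZ libraries A, B and C, 23.7, 31.2 and 38.9 in the Nrf1 libraries, and 38.9, 30.6 and 37.0 in the Nrf2 libraries. Neither factor's libraries overlapped with LacZ, but the highest of each came within 4 normalised reads of the lowest LacZ library. *Clcf1* was called lower with Nrf1 (-0.64 ± 0.22, SE, adjusted p = 0.0171) and was not called with Nrf2 (-0.44 ± 0.19, SE, adjusted p = 0.0699). The Nrf1 call was lost without LacZ library B (-0.48, adjusted p = 0.0850) and without Nrf1 library A (-0.46, adjusted p = 0.0913).

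*Il11*, the fourth ligand, was near the detection limit in every group. It had 4, 2 and 1 reads in the LacZ libraries, 2, 3 and 6 in the Nrf1 libraries, and 11, 7 and 3 in the Nrf2 libraries. The groups overlapped, and the authors' means were 2.34 in LacZ and 3.66 in Nrf1 samples in one table, and 2.50 in LacZ and 6.09 in Nrf2 samples in another. With no filter on low counts limma gave 0.43 (adjusted p = 0.485) with Nrf1 and 1.00 (adjusted p = 0.0944) with Nrf2, so the higher means did not stand out from the spread between libraries at this depth.

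The receptor genes moved differently from each other. *Il6st*, the shared gp130 chain, had between 5325 and 5581 normalised reads in the LacZ libraries, between 5291 and 5335 in the Nrf1 libraries, and between 4902 and 5152 in the Nrf2 libraries. LacZ and Nrf1 libraries overlapped, with a log2 difference of -0.03 ± 0.03 (SE, adjusted p = 0.419) and a 95% confidence interval of -0.10 to 0.04. The Nrf2 libraries lay below all LacZ libraries, but the difference was only -0.12 ± 0.04 (SE, adjusted p = 0.0106), far under the fold cutoff.

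*Osmr*, which pairs with gp130 to bind oncostatin M, had 551, 763 and 573 normalised reads in LacZ libraries A, B and C, 309, 303 and 291 in the Nrf1 libraries, and 373, 343 and 364 in the Nrf2 libraries. The Nrf1 libraries were lowest, the Nrf2 libraries were in between, and no group overlapped with another. The difference from LacZ was -1.05 ± 0.09 (SE, adjusted p = 5.12e-08) with Nrf1 and -0.79 ± 0.10 (SE, adjusted p = 6.83e-06) with Nrf2. Without LacZ library B it was -0.90 and -0.64, and both were still called.

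Of the IL-1 family ligands, *Il33*, which encodes an alarmin stored in the nucleus of stromal and endothelial cells, was clearly measured. It had 227, 308 and 234 normalised reads in LacZ libraries A, B and C, 104, 85.8 and 97.2 in the Nrf1 libraries, and 128, 115 and 142 in the Nrf2 libraries. As for *Osmr*, the Nrf2 libraries lay between the Nrf1 and the LacZ libraries without overlap. The difference from LacZ was -1.40 ± 0.12 (SE, adjusted p = 3.33e-08) with Nrf1 and -0.98 ± 0.12 (SE, adjusted p = 6.62e-06) with Nrf2, and -1.26 and -0.84 without LacZ library B.

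*Il1b*, which encodes interleukin-1β, was rare. It had 14, 14 and 4 reads in LacZ libraries A, B and C, 5, 0 and 2 in the Nrf1 libraries, and 4, 1 and 1 in the Nrf2 libraries. The sums were 32, 7 and 6 reads, and LacZ library C and Nrf1 library A were level after normalisation (4.74 and 4.73). Without the filter limma gave -2.05 (adjusted p = 0.00558) with Nrf1 and -2.17 (adjusted p = 0.00184) with Nrf2.

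*Csf1*, the macrophage growth factor, had the smallest SE of the called genes among the 9. It had 1980, 2160 and 2055 normalised reads in LacZ libraries A, B and C, 1140, 1075 and 1082 in the Nrf1 libraries, and 1235, 1137 and 1112 in the Nrf2 libraries. All LacZ libraries lay far above the others, while the Nrf1 and Nrf2 libraries overlapped. The difference was -0.91 ± 0.04 (SE, adjusted p = 2.05e-11) with Nrf1 and -0.83 ± 0.05 (SE, adjusted p = 2.24e-09) with Nrf2, and it was -0.88 and -0.80 without LacZ library B. Counted over the 7 tested genes, the libraries were all below the LacZ libraries for 6 with Nrf1 (all but *Il6st*) and for 7 with Nrf2, beside 34.0% and 29.9% of all tested genes.

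**Figure D2:**
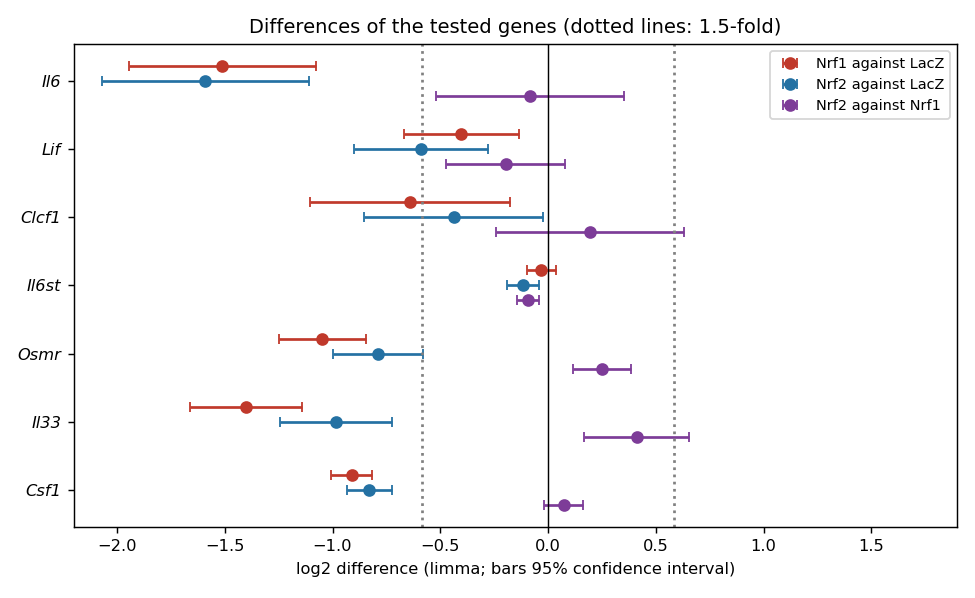
The log2 difference (x axis) of the 7 tested genes (y axis) for Nrf1 against LacZ, Nrf2 against LacZ and Nrf2 against Nrf1, from limma; points are estimates, bars 95% confidence intervals, and dotted lines mark the 1.5-fold cutoff. *Il6*, *Osmr*, *Il33* and *Csf1* lie past the cutoff in both comparisons with LacZ, and no gene does in the direct comparison.

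Nrf2 and Nrf1 samples were then compared directly, in the authors' table for this pair and by limma on their 6 libraries. No tested gene passed both cutoffs (0 of 7 lower and 0 of 7 higher, beside 4.62% and 11.0% of all tested genes), while 3 of 7 had an unadjusted p under 0.05, beside 62.8% of all tested genes. In the authors' means *Il11* alone was past 1.5-fold, and it was higher with Nrf2 (17.2% of all genes were higher and 7.37% lower). At the adjusted p alone, *Osmr* was higher with Nrf2 by 0.25 ± 0.06 (SE, adjusted p = 0.00227) and *Il33* by 0.41 ± 0.12 (SE, adjusted p = 0.00510). *Il6st* was lower with Nrf2, by -0.09 ± 0.02 (SE, adjusted p = 0.00234). For *Il6* the difference between the factors was -0.08 with a 95% confidence interval of -0.52 to 0.35 (0.03 without Nrf1 library A and 0.07 without Nrf2 library A), and for *Csf1* it was 0.07 with an interval of -0.02 to 0.16. The interval ran from -0.47 to 0.08 for *Lif* and from -0.24 to 0.63 for *Clcf1*, so a 1.5-fold higher level of *Clcf1* with Nrf2 lay inside it.

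The other genes of the gp130 pathway were taken from lists, and their counts are over the genes that passed the filter. List genes over 1 CPM in all libraries of one group and in no library of the other had to differ, and they are left out of the counts and medians. Of 6 tested gp130 ligand genes, including the members above, 3 were called lower and 1 higher with Nrf1 (median log2 difference -0.58), and 3 lower and 0 higher with Nrf2 (median -0.52). The medians over all tested genes were 0.00 in both comparisons. Of all tested genes, 16.7% were called lower and 11.2% higher with Nrf1, and 9.37% lower and 9.02% higher with Nrf2. These shares are the background for the counts of every list below. Without LacZ library B, 1 ligand gene was called lower with Nrf1 and 2 with Nrf2, since *Clcf1* and *Ebi3* were lost with Nrf1 and *Lif* with Nrf2. *Ebi3* differed by -0.86 with Nrf1 (adjusted p = 0.0269), and by -0.64 (adjusted p = 0.134) without LacZ library B. Its call was also lost without LacZ library A, Nrf1 library A or Nrf1 library B. *Ctf1*, which encodes the heart cytokine cardiotrophin-1, was higher with Nrf1 (1.33, adjusted p = 4.61e-04) and was not called with Nrf2 (-0.29, adjusted p = 0.585). *Cntf*, a neurotrophic ligand of the family, was lower with Nrf2 (-0.97, adjusted p = 0.00100).

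Of 6 tested gp130 receptor genes, *Osmr* was the only one called in either comparison, with list medians of -0.06 and -0.06. *Lifr*, the receptor for LIF, was -0.10 from LacZ in Nrf1 samples (adjusted p = 0.410) and -0.0048 in Nrf2 samples (adjusted p = 0.970). *Il6r*, the receptor for interleukin-6, differed by 0.28 (adjusted p = 0.0176) and 0.06 (adjusted p = 0.644). The receptor gene *Il11ra1* was lower, by -0.44 (adjusted p = 6.62e-06) and -0.20 (adjusted p = 0.00722), under the fold cutoff. It had 648 to 714 normalised reads in LacZ, 472 to 523 in Nrf1 and 570 to 603 in Nrf2 libraries. Without LacZ library B, *Cntfr*, the receptor for CNTF, was also called, higher with Nrf2 (0.77, adjusted p = 0.0389).

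Of 10 genes of JAK-STAT3 signalling and its feedback, 1 was called lower with Nrf1 (*Pias3*, an inhibitor of STAT3, -0.59, adjusted p = 6.55e-08) and 0 higher (2 and 0 without LacZ library B, when *Socs1* was called too). The difference of *Pias3* lay close to the fold cutoff and fell under it without LacZ library C (-0.57) or Nrf1 library A (-0.58). With Nrf2, limma called 0 of 10 (0 with voom weights), while 2 were lower and 3 higher at an unadjusted p under 0.05, as were 59.7% of all tested genes in either direction. *Ptpn11* was lower by -0.52 (adjusted p = 3.02e-09) with Nrf1 and -0.47 (adjusted p = 1.47e-07) with Nrf2, under the fold cutoff. *Jak2* was higher with Nrf2 (0.31, adjusted p = 5.99e-04), also under it. *Stat3*, the main STAT of the gp130 pathway, differed by 0.04 (adjusted p = 0.400) and 0.12 (adjusted p = 0.0325). *Socs3*, a feedback inhibitor that STAT3 induces, differed by -0.22 (adjusted p = 0.312) and 0.01 (adjusted p = 0.963). Of 13 STAT3 and acute-phase target genes, 8 were called lower with Nrf1 and 5 with Nrf2, and 0 higher (medians -0.74 and -0.47). The counts were the same without LacZ library B, although with Nrf2 *Nnmt* then took the place of *Hp*. *Hp* differed by -0.93 with Nrf2 (adjusted p = 0.0130), and by -0.66 (adjusted p = 0.0708) without that library. Its call was also lost without Nrf2 library B. *Lcn2*, an iron-binding acute-phase protein gene, had 147.8 to 239.1 normalised reads in LacZ, 39.0 to 90.3 in Nrf1 and 56.9 to 73.1 in Nrf2 libraries, with differences of -1.69 (adjusted p = 6.36e-06) and -1.53 (adjusted p = 1.22e-06). *Serpina3n*, a protease inhibitor gene, differed by -2.18 (adjusted p = 6.28e-05) and -1.30 (adjusted p = 0.00555). LacZ library B held 92.0 normalised reads of it against 30.2 and 30.8 in A and C, and without that library the differences were -1.66 and -0.78. *Bcl3*, an NF-κB cofactor gene, differed by -1.36 (adjusted p = 0.00150) and -1.28 (adjusted p = 0.00345).

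**Figure D3:**
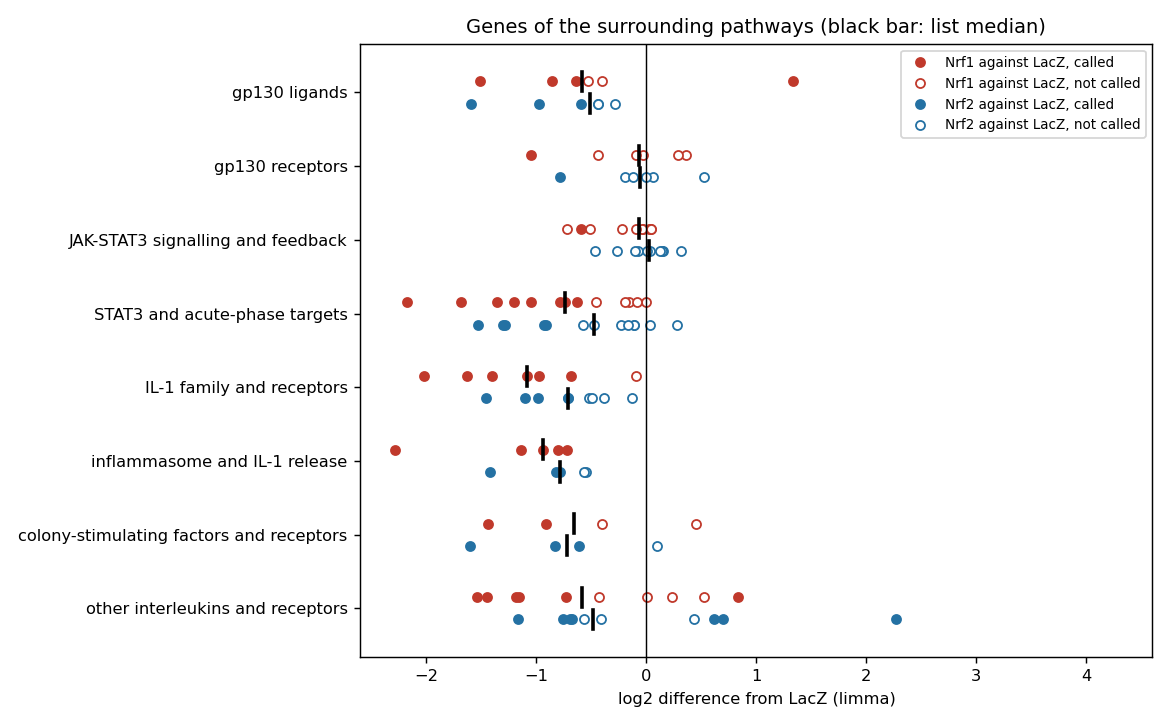
The log2 difference from LacZ (x axis) of each tested gene in 8 lists (y axis), for Nrf1 and Nrf2, from limma; filled circles are called genes, open circles genes not called, and the black bar is the median of the list. Genes that passed the filter through one group alone are left out. The IL-1 family has medians of -1.09 with Nrf1 and -0.71 with Nrf2, and the gp130 receptors have medians of -0.06.

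Around *Il1b* and *Il33*, the list of the IL-1 family and its receptors held 10 genes that passed the filter, of which *Il1a*, *Il18* and *Il18r1* passed it against Nrf1, and *Il1a* against Nrf2, through the LacZ libraries alone. Of the other 7 genes against Nrf1, 6 were called lower (median -1.09), and of the other 9 against Nrf2, 5 were called lower (median -0.71), with 0 higher. Without LacZ library B the counts were 6 of 7 and 4 of 9. *Il18*, an interferon-γ-inducing cytokine gene, had 19.1 to 35.9 normalised reads in LacZ, 3.79 to 4.88 in Nrf1 and 13.3 to 20.5 in Nrf2 libraries. It was called lower with Nrf2 (-0.71, adjusted p = 0.0444), a call that was lost without LacZ library B (-0.49, adjusted p = 0.185), LacZ library C, Nrf2 library A or Nrf2 library B. *Il1a*, the gene of interleukin-1α, had 13.1 to 24.7 normalised reads in LacZ, 2.84 to 3.43 in Nrf1 and 2.62 to 7.80 in Nrf2 libraries. The members that moved included genes of inhibitors: *Il1rn*, the gene of the IL-1 receptor antagonist, differed by -2.02 (adjusted p = 1.52e-06) and -1.46 (adjusted p = 9.28e-05), and *Il18bp*, which encodes a protein that captures interleukin-18, by -1.09 (adjusted p = 3.17e-05) and -1.11 (adjusted p = 3.90e-05). *Il1rl1*, the gene of the receptor for interleukin-33, had 1340 to 1439 normalised reads in LacZ, 778 to 922 in Nrf1 and 789 to 916 in Nrf2 libraries, and differed by -0.69 (adjusted p = 3.21e-08) and -0.72 (adjusted p = 4.74e-08). Of the 5 genes of the inflammasome and IL-1 release, 5 were called lower with Nrf1 and 3 with Nrf2 (medians -0.94 and -0.78). The count was 4 and 2 without LacZ library B, when *Casp1*, the protease that matures interleukin-1β, was not called (-0.48 and -0.49). The *Casp1* call was lost without Nrf1 library C, and in the comparison with Nrf2 also without LacZ library C, Nrf2 library B or Nrf2 library C. *Casp4*, an inflammatory caspase gene, had 271 to 319 normalised reads in LacZ, 57.7 to 60.6 in Nrf1 and 107 to 110 in Nrf2 libraries, with differences of -2.29 (adjusted p = 1.03e-11) and -1.43 (adjusted p = 6.07e-09).

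Around *Csf1*, 2 of 4 tested genes of the colony-stimulating factors and their receptors were called lower with Nrf1 and 3 of 4 with Nrf2 (medians -0.66 and -0.72), not counting *Il34*. *Csf2rb*, the shared chain of the receptors for GM-CSF, interleukin-3 and interleukin-5, differed by -1.44 (adjusted p = 1.36e-06) with Nrf1 and -1.60 (adjusted p = 2.26e-06) with Nrf2. *Il34*, the gene of the other ligand of the CSF1 receptor, passed the filter through the LacZ libraries alone, with 10.7 to 13.5 normalised reads in LacZ, 1.95 to 4.73 in Nrf1 and 5.80 to 7.87 in Nrf2 libraries. *Csf1r*, the receptor itself and a macrophage marker, did not fall: it had 222 to 349 normalised reads in LacZ, 346 to 410 in Nrf1 and 261 to 330 in Nrf2 libraries. It differed by 0.45 with Nrf1 (adjusted p = 0.00318), under the fold cutoff, and by 0.62 without LacZ library B, when it was called higher. Without that library 2 of 4 genes were called lower in each comparison, since *Csf2ra*, a GM-CSF receptor gene, was lost with Nrf2 (-0.48), as it also was without Nrf2 library A (-0.52) or C (-0.58).

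Of 10 other tested interleukin and interleukin receptor genes, 5 were called lower and 1 higher with Nrf1, and 4 lower and 3 higher with Nrf2 (medians -0.58 and -0.49). *Il7*, the gene of a lymphocyte growth factor, had 8.04 to 20.2 normalised reads in LacZ, 11.7 to 16.1 in Nrf1 and 64.7 to 73.7 in Nrf2 libraries. It was called higher with Nrf2 (2.27, adjusted p = 4.72e-06) and not with Nrf1 (0.00, adjusted p = 0.996). *Il12a*, a subunit gene of interleukin-12, was higher with Nrf1 (0.83, adjusted p = 5.99e-04). *Il7r*, the receptor for interleukin-7, was lower with Nrf1 (-1.54, adjusted p = 1.14e-05) and in Nrf2 samples (-0.76, adjusted p = 0.00294), the latter not without LacZ library B (-0.52).

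Most tested fibroblast, leukocyte and endothelial markers were also called lower with each factor, while smooth muscle and pericyte markers were mixed. Over all tested genes, 16.7% were called lower with Nrf1 and 9.37% with Nrf2. Of 7 tested fibroblast markers, 7 were called lower with Nrf1 and 5 with Nrf2, with and without LacZ library B, and their summed normalised read count was 5376 to 7452 in LacZ, 1719 to 1836 in Nrf1 and 2719 to 3359 in Nrf2 libraries. Of the macrophage and leukocyte markers, 7 of 8 were called lower with Nrf1 (not counting *C1qb*, which passed the filter through LacZ alone) and 8 of 9 with Nrf2 (7 of 8 and 7 of 9 without LacZ library B), and the sum was 1673 to 2470 in LacZ, 984 to 1012 in Nrf1 and 942 to 1033 in Nrf2 libraries. The Nrf2 call of *C1qb* was lost without LacZ library B (-0.97, adjusted p = 0.0627), LacZ library A, LacZ library C or Nrf2 library B. *Ptprc*, which marks all leukocytes, differed by -1.67 (adjusted p = 2.22e-07) and -1.31 (adjusted p = 2.61e-05), and *Csf1r* was the marker that did not fall. Of 6 endothelial markers, 4 were called lower in each comparison, with sums of 4100 to 4156, 2448 to 2494 and 2249 to 2506. The others, *Kdr* and *Tek*, differed by 0.15 and -0.46 with Nrf1 and by -0.40 and 0.21 with Nrf2. Most of the endothelial sum came from *Eng* (2860 to 2927 in LacZ libraries), and most of the fibroblast sum from *Postn* (4076 to 5162 in LacZ libraries). The fibroblast sum leaves out *Col1a1*, whose reads were not resolved. Its authors' mean was far higher, at 86236 in LacZ and 22603 in Nrf1 samples. Of the smooth muscle and pericyte markers, 3 of 5 were called lower and 1 higher with Nrf1 (not counting *Rgs5*, which passed the filter through LacZ alone), and 1 of 6 lower and 1 higher with Nrf2, and these counts were the same without LacZ library B. The sum of that list, 18587 to 19220 in LacZ, 34662 to 35661 in Nrf1 and 25844 to 26714 in Nrf2, was higher with both factors. Most of that sum came from *Des*, the gene called higher, which cardiomyocytes also express. *Des* had 12543 to 12678 normalised reads in LacZ, 30820 to 31616 in Nrf1 and 20571 to 21841 in Nrf2 libraries. The median log2 difference of the list was -1.01 with Nrf1 (not counting *Rgs5*) and -0.22 with Nrf2. LacZ library B had the highest fibroblast and leukocyte sums of all 9 libraries. None of these sums was at 0, and their part in the lower cytokine levels was not tested.

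Of 8 tested cardiomyocyte markers, 4 were called lower and 1 higher with Nrf1, and 0 either way with Nrf2 by limma (0 with voom weights). With Nrf2, 2 were lower and 4 higher at an unadjusted p under 0.05, as were 59.7% of all tested genes in either direction. The sarcomere genes *Myh7*, *Tnni3* and *Myl7* differed by -1.07, -0.96 and -0.73 with Nrf1 and by -0.26, 0.23 and 0.16 with Nrf2. *Myl2* was also called lower with Nrf1, by a difference between those of *Myh7* and *Tnni3*, and differed by -0.15 with Nrf2. The marker called higher with Nrf1 was *Ryr2* (0.83), which differed by 0.44 with Nrf2. *Myh6*, *Actn2* and *Pln* were not called with either factor. The summed level was 63915 to 68402 in LacZ, 51309 to 53100 in Nrf1 and 68376 to 70654 in Nrf2 libraries, so the labelled cell type was present in every library. This sum leaves out *Tnnt2* and *Nppa*, whose reads were not resolved.

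**Figure D4:**
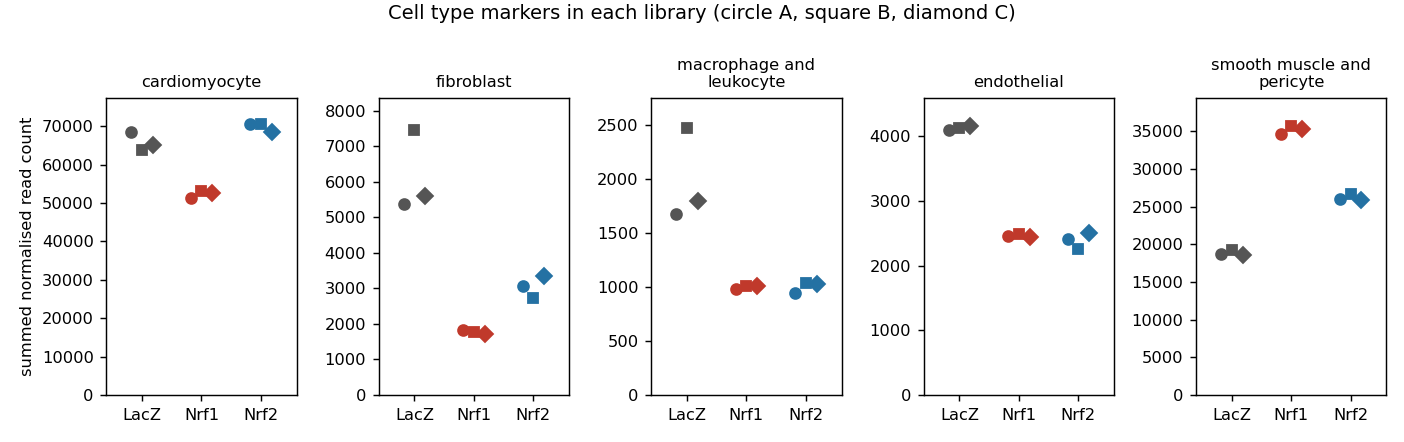
Summed normalised read count (y axis, from 0, a scale for each list) of the marker genes of 5 cell types in each library of LacZ, Nrf1 and Nrf2; symbols are libraries A, B and C. Fibroblast markers sum to 5376 to 7452 in LacZ and 1719 to 1836 in Nrf1 libraries, and LacZ library B (square) is highest of all for fibroblast and for macrophage and leukocyte markers. Most of the smooth muscle and pericyte sum is *Des*, which cardiomyocytes also express. *Col1a1*, *Tnnt2* and *Nppa*, whose reads were not resolved, are not in the sums.

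The genes most like *Il6*, *Osmr* and *Csf1* were taken as those nearest in the plane of the log2 ratios of Nrf1 and Nrf2 to LacZ (authors' means, 8314 genes with a LacZ mean of at least 100, a likeness over 3 group means). For *Il6* they were *Mmp12*, a macrophage elastase gene (-1.51 and -1.59, distance 0.080), *Icam1*, an adhesion molecule gene (-1.64 and -1.69), and *Lcn2* (-1.65 and -1.57). For *Osmr* they were *Ddit3*, a stress transcription factor gene (-1.03 and -0.81, distance 0.035), *Ifitm2*, an interferon-induced membrane protein gene (-1.08 and -0.84), and *Zfp503* (-1.12 and -0.82). For *Csf1* they were the endothelial marker *Pecam1* (-0.90 and -0.81, distance 0.029), *Chst14*, a sulfotransferase gene (-0.88 and -0.84), and *Adgrf5*, an adhesion receptor gene (-0.88 and -0.81).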

How the data were processed

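RNA of NRVMs expressing LacZ, Nrf1 or Nrf2 was sequenced in 9 stranded libraries as single-end reads. According to the study's methods and the labels, the authors used HISAT2 2.0.4 for alignment to rat Rnor_6.0, SAMtools 0.1.18 to take out duplicates and featureCounts 1.6.0 for counting, and named edgeR 3.20.5 for their tests. Removal of duplicates can lower the counts of the highest genes. The organism label reads mouse, but the cells and genome are rat. The signal deposited by the authors is, per gene and pair of groups, the mean of the group's size-factor-normalised read counts. The authors' fold change, p-value and adjusted p-value columns were not used, and 0 columns of single samples were left unused.

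Each group mean is a sum of whole reads times the value of 1 read in each of the 3 libraries, divided by the number of libraries. These values were read from the lowest means, and the 2 tables that share a group were solved together for the reads. Genes with no solution or several were left out, including *Tnnt2*, *Nppa* and *Col1a1*. In data simulated from the genes that had resolved, all genes that resolved again were right. This check does not cover the genes left out. The resolved genes hold 91.4% of the summed LacZ mean.

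Genes over 1 CPM in at least 3 libraries were tested with limma 3.58.1 (trend, R 4.3.3) on log2(normalised read count + 1), for 2 groups at a time, with Benjamini-Hochberg adjustment. The fold on this scale understates changes of low genes. Ratios of the authors' means were used with no test, for genes with a mean of at least 1. The alternatives were a fold cutoff of 2, re-centring on the median gene, other filters and pseudocounts, voom weights, all 9 libraries in a single fit, leaving out each library and, chosen after seeing the data, lists without LacZ library B and lists without genes that passed the filter through one group alone.

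The members and lists were chosen with earlier results of these data known. Genes were named by rule (all 9 members, up to 3 called genes per list and direction, 3 nearest genes for *Il6*, *Osmr* and *Csf1*). List genes beyond the 3 largest changes, and those not called, were named after their values were seen. In the tables with LacZ, 26 symbols written as dates were not matched. A pair of list genes is not reported here and was left out of the lists. A planned search for motifs in promoters was not run and no sequences are shown, since the reference at hand is of another species.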

Additional observations from a re-analysis of the deposited data

Results flagged for a closer look

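Several genes differed between the factors when Nrf2 was tested directly against Nrf1 (log2 difference by limma, 3 libraries each). Of the 9 cytokine and receptor genes these were *Osmr* (0.25), *Il6st* (-0.094) and *Il33* (0.41), all under the 1.5-fold cutoff. At an unadjusted p under 0.05 they were 3 of 7 tested, beside 62.8% of all tested genes. Of the gp130 ligand list, *Ctf1* (-1.64, adjusted p = 5.30e-04) was lower with Nrf2. In the signalling and acute-phase lists, *Socs1* (0.86), *Serpina3n* (0.88) and *Lbp* (1.23) had higher fitted levels with Nrf2. For *Socs1* the libraries overlapped, with 17.4, 47.2 and 16.6 normalised reads in Nrf2 and 12.3, 20.5 and 8.0 in Nrf1 libraries, the adjusted p was 0.0496, and the difference was 0.39 (adjusted p = 0.391) without Nrf2 library B. The *Socs1* call was also lost without Nrf1 library A or C, and that of *Serpina3n* without Nrf1 library A (0.69, adjusted p = 0.0790) or Nrf2 library A (0.71, adjusted p = 0.122). In the IL-1 and inflammasome lists, *Il1r2* (1.24) and *Casp4* (0.86) were higher with Nrf2. *Il18* (1.63) and *Il18r1* (1.15) passed the filter through the Nrf2 libraries alone, so a difference was built in. Among other interleukins, *Il7* (2.26, adjusted p = 9.20e-09) and *Il7r* (0.78) were higher with Nrf2.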

How the results depend on the processing

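At a fold cutoff of 2, the authors' means put 4 of the 9 genes past it for Nrf1 against LacZ. All 4 were lower (*Il6*, *Osmr*, *Il1b* and *Il33*). For Nrf2 against LacZ 3 were past it, 2 lower (*Il6* and *Il1b*) and 1 higher (*Il11*). For Nrf2 against Nrf1 the count was 0. The share of all genes past a fold of 2 was not counted. The count for Nrf2 against Nrf1, which was *Il11* alone, was 0 with 1 added to both means and 0 for genes with a mean of at least 10. The number called by limma ranged from 4 to 5 when a library was left out, in each comparison with LacZ, and stayed 0 between the factors, also with voom weights and with all 9 libraries in a single fit. Of 273 results for single genes under the alternatives, 267 kept their side of the threshold and 6 lost a call or fell under the fold cutoff. The sign changed in 2 of the 273, both for the uncalled difference of *Il6* between the factors (0.03 without Nrf1 library A and 0.07 without Nrf2 library A, against -0.08). No paired analysis was possible because the recovered libraries carry no replicate number. Depth limits *Il11* and *Il1b*, with 7 and 32 reads in the LacZ libraries together. The recovered libraries cannot be matched to the labelled samples, and a batch could not be looked for.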
